A study of Mus musculus with 6 samples.

Results

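The miRNA miR-124 was described by both strands of its precursor, mmu-miR-124-3p and mmu-miR-124-5p (below miR-124-3p and miR-124-5p), chosen by name as 2 of the 756 mature miRNAs in the table. The small RNA came from dorsal striatum, a region of the basal ganglia, in C57BL/6N mice of 7 weeks. In the nicotine withdrawal group (n = 3 libraries), animals were given 0.5 mg/kg nicotine intraperitoneally each day for 3 days and mecamylamine, a blocker of nicotinic acetylcholine receptors, at 3.0 mg/kg 24 hours later. The saline control group (n = 3 libraries) received saline in place of both drugs, so nicotine and mecamylamine cannot be told apart in any difference between the groups. Tissue was collected 1 week after the final injection.

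miR-124 is among the best known neuronal miRNAs of the vertebrate brain. It accumulates as neural progenitors leave the cell cycle, it represses transcripts of non-neuronal cells, and among its targets is Ptbp1, a splicing repressor whose loss allows neuronal splicing. In non-neuronal cells its genes are silenced by REST, a transcriptional repressor that also acts on the genes of miR-9 and miR-132. The 3p strand is the guide loaded into Argonaute, and the 5p strand is its passenger.

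In mouse the same mature strands come from 3 hairpin genes, so the 2 values sum over these genes. By RefSeq names on GRCm38, Mir124a-1 overlapped the long non-coding RNA gene Mir124a-1hg. Mir124a-2 overlapped the long non-coding RNA gene Mir124-2hg and the miRNA gene Gm51272. Mir124a-3 overlapped no other listed gene and had Gm14344 and Ythdf1 as its neighbours. Which of the genes gave the reads cannot be told apart from the mature strands.

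The mature sequences of 4 other neuronal miRNAs against which miR-124 was set are shown for reference, and the comparisons with them below use reads only. The sequence source held no entry for miR-124, so its seed was not compared with theirs. The capitals mark the seed (bases 2 to 8), the stretch that pairs with target transcripts, and it differs between the 4. They are written 5′ to 3′ as in RefSeq on GRCm38.p6.
miR-9-5p: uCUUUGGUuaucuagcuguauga
miR-128-3p: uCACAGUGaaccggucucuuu
miR-138-5p: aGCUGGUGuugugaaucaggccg
miR-434-3p: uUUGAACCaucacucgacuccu
None of these seeds was carried by another miRNA of the table, among the 654 whose names matched a RefSeq mature sequence.

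Levels are normalized reads, that is reads per mature miRNA after the library scaling of the authors, and are not divided by length. Whether reads of different miRNAs or strands measure their relative amounts in the tissue was not tested, so ranks and excesses below are of reads. The matched mature sequences had a median of 22 bases and ranged from 19 to 26. Estimated totals were between 40111870 and 53262896 reads per library. The counting error of miR-124-3p was then 0.155 to 0.179% and that of miR-124-5p 1.64 to 1.90%, which covers counting only. The labels speak of mice but do not tie each library to 1 animal, so the p-values measure the spread between libraries.

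miR-124-3p was abundant and varied little. It stood at 352626, 341577 and 343954 normalized reads in saline controls 1 to 3. It stood at 368984, 359978 and 348979 in withdrawal 1 to 3. Withdrawal 1 and 2 were above every control, while withdrawal 3 lay below control 1, so the groups overlapped. The means were 346052 ± 5816 (SD, n = 3) in controls and 359314 ± 10019 (SD, n = 3) in withdrawal, a difference of 3.83%. The log2 fold change (withdrawal over saline, on the log2(value + 1) scale) was 0.05 ± 0.03 (SE, limma, Benjamini-Hochberg adjusted p = 0.281). Its unadjusted p was 0.0812, with a 95% interval of the difference from -0.533% to 8.35%. miR-124-3p therefore did not pass the test, in a comparison where 46 of 699 miRNAs passed (6.58%). Of these, 21 were higher (3.00%) and 25 lower (3.58%), and the split was 46 higher and 15 lower when libraries were scaled to equal totals, or 32 and 16 when miR-127-3p, the most abundant miRNA, was also left out. The count of 46 was 17 without control 2, 21 without control 3, 21 without withdrawal 2 and 0 in limma with no variance trend (where 112 had an unadjusted p under 0.05).

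The passenger miR-124-5p was measured at 3131, 3039 and 2982 normalized reads in the controls. In withdrawal it was measured at 3087, 3079 and 3100. The withdrawal values all lay inside the range of the controls. The means were 3051 ± 75.2 and 3089 ± 10.6 (SD, n = 3 each), with a log2 fold change of 0.02 ± 0.04 (limma, adjusted p = 0.833). The 95% interval of this difference ran from -4.23% to 7.07%. The 3 withdrawal libraries had a coefficient of variation of 0.342%, which is below the counting error, against 2.46% in the controls. For miR-124-3p the coefficients were 1.68% in controls and 2.79% in withdrawal, both above the counting error.

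**Figure D1:**
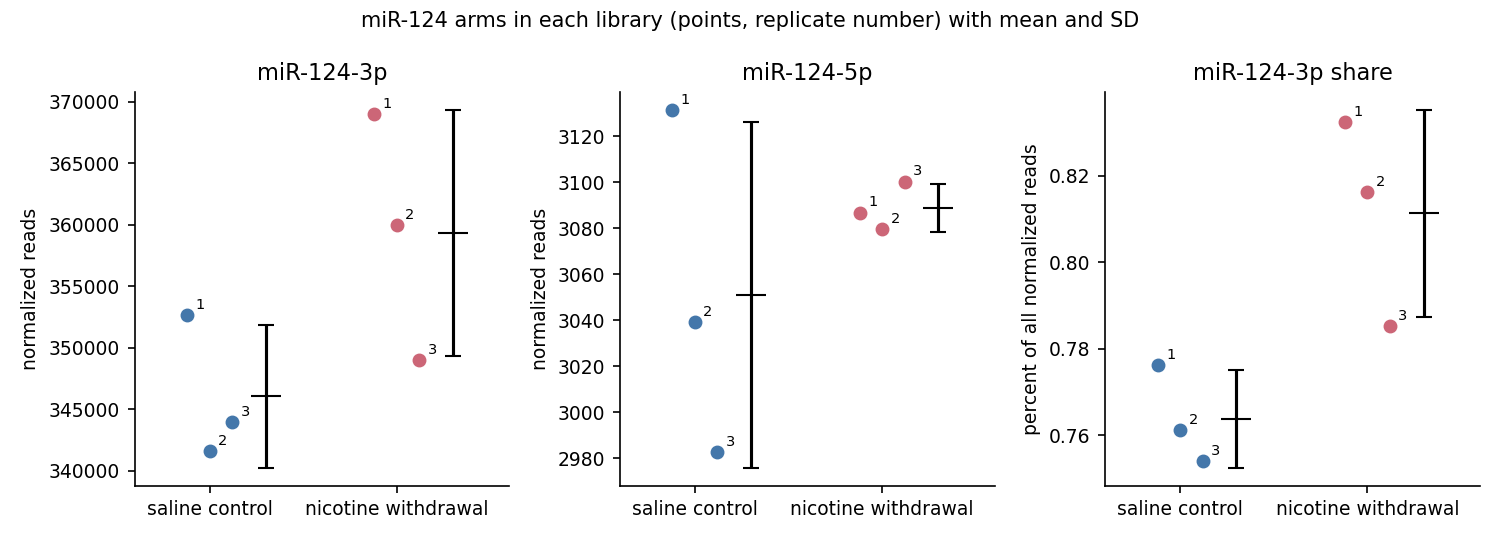
Normalized reads of miR-124-3p and miR-124-5p and the percent of all normalized reads taken by miR-124-3p, by library (points, with replicate numbers), with the mean and SD of 3 libraries beside them; the vertical axes do not start at 0. Withdrawal 3, at 348979, lies below control 1, at 352626, for miR-124-3p, whereas the shares of the groups are separate.

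As a share of all normalized reads, miR-124-3p took 0.776, 0.761 and 0.754% in the controls. It took 0.832, 0.816 and 0.785% in the withdrawal libraries. The shares did not overlap, as was also the case for 28.3% of the 699 miRNAs tested. The means were 0.764 ± 0.0114% and 0.811 ± 0.0239% (SD, n = 3 each), with an exact permutation p = 0.1 (two-sided), the smallest that 3 against 3 libraries allow. The share of miR-124-5p was 0.00689, 0.00677 and 0.00654% in controls and 0.00696, 0.00698 and 0.00698% in withdrawal. These shares were also separate (exact permutation p = 0.1, two-sided). The total of normalized reads, by which shares are divided, was 44870956 to 45619789 in controls and 44098338 to 44437368 in withdrawal. With miR-127-3p left out of the total, the share of miR-124-3p in withdrawal 3 was 0.975%. That lay below control 1 at 0.985%, and the groups overlapped (exact permutation p = 0.2). With equal library totals the log2 fold change of miR-124-3p was 0.09 ± 0.03 (limma, adjusted p = 0.0748) and that of miR-124-5p 0.05 ± 0.04 (limma, adjusted p = 0.451), while without withdrawal 1 that of miR-124-3p was 0.03 ± 0.03 (limma, adjusted p = 0.576).

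By mean level miR-124-3p was the miRNA at rank 26 of the 699 tested, and its rank among all 756 within single libraries lay between 25 and 28. The miRNAs just above it were miR-381-3p (424677 normalized reads over 6 libraries) and miR-136-3p (409468), both of the imprinted Dlk1-Dio3 region, and miR-92b-3p (362132). Just below it were let-7a-5p (351663), let-7c-5p (336799) and let-7i-5p (335226), members of the let-7 family that promote differentiation. miR-381-3p and miR-136-3p were above miR-124-3p in each of the 6 libraries and their ranges did not meet. miR-92b-3p was above miR-124-3p in 4 libraries, the 3 controls and withdrawal 3. let-7a-5p was above miR-124-3p in the 3 controls and below it in each withdrawal library. The order of these 3 miRNAs by mean thus joins groups in which it differs. Ratios of miR-124-3p to another miRNA were separate for 26.1% of the 698 others tested. The level of let-7c-5p exceeded that of miR-124-3p in 1 library and that of let-7i-5p in 0.

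Among the 54 miRNAs with a mean of at least 100000 normalized reads, 26 differed more between the groups than miR-124-3p on the log2 scale. The median absolute log2 fold change of these 54 was 0.05, equal at 2 decimals to that of miR-124-3p. Its SD within groups was 0.0332 on the log2 scale, against a median of 0.0318 for the 54. Of the 54, 10 passed the test, beside 46 of all 699 miRNAs tested (6.58%). miR-124-3p thus stood near the middle of the abundant miRNAs both in its change and in its spread. For miR-124-5p, 142 of the 163 miRNAs of 1000 to 10000 normalized reads differed more between the groups, and 18 had a smaller SD.

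The balance between the strands was strongly on the 3p side. There were 8.88, 8.90 and 8.67 reads of miR-124-5p per 1000 reads of miR-124-3p in the controls. The withdrawal libraries had 8.37, 8.55 and 8.88. Withdrawal 1 and 2 were below every control and withdrawal 3 lay among them. Over the 6 libraries miR-124-3p had 115-fold the reads of its passenger, which put the precursor at rank 27 of 203 from the 3p end. The log2 ratio of 5p to 3p was -6.83 ± 0.0207 in controls and -6.86 ± 0.0438 in withdrawal (SD, n = 3 each). The difference was -0.04 ± 0.04 (SE, limma, adjusted p = 0.714), with a 95% interval from -0.14 to 0.07; it was -0.0161 without withdrawal 1 and -0.0595 without withdrawal 3. In limma 0 of the 203 precursors passed (0%), and 33 had an unadjusted p under 0.05; 1 passed without withdrawal 3.

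Of the neuron-enriched miRNAs with both strands tested, miR-137 (121-fold) and miR-495 (102-fold) had a 3p excess like that of miR-124. It was 50.6-fold for miR-153, 9.99-fold for miR-132 and 8.94-fold for miR-434. miR-9 had its excess on the 5p side, at 62.8-fold, and miR-212 and miR-376a had nearly equal strands. The ratio of miR-124 was also among the steadiest, since its SD within groups ranked 19 of 203 from the lowest. The SD was 0.0343 for miR-124 and 0.203 for miR-137 on the log2 scale. Counting error of the lesser strand enters this SD, and its part was not tested. miR-137-3p had a mean of 16828 normalized reads against 352683 for miR-124-3p, so at a like excess its lesser strand had fewer reads.

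**Figure D2:**
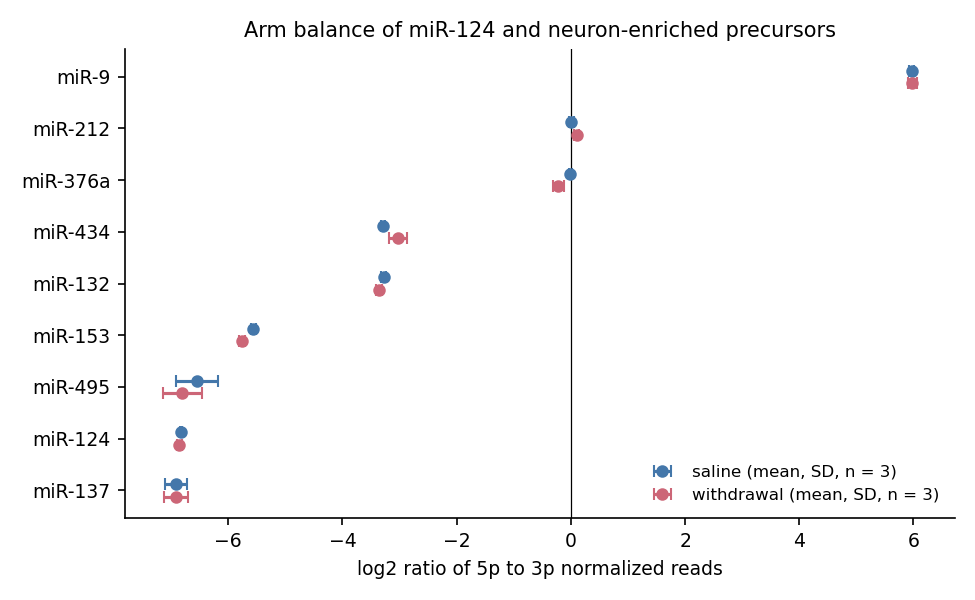
Log2 ratio of 5p to 3p normalized reads for miR-124 and the neuron-enriched precursors with both strands tested, as mean and SD of 3 libraries in each group. miR-124, at -6.83 in saline and -6.86 in withdrawal, lies near the 3p end beside miR-137, and miR-9 at the 5p end.

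miR-124 was then set beside 14 other neuron-enriched miRNAs. Of these, 2 fell (miR-138-5p and miR-434-3p) and 0 rose in limma, while 12 did not pass, beside 3.58% lower and 3.00% higher over all tested miRNAs. Both calls were lost in limma without a trend of variance on level (adjusted p = 0.225 and 0.230), and that of miR-434-3p also with quantile normalization (limma adjusted p = 0.0945). At an unadjusted p under 0.05, 5 of the 14 were higher and 3 lower, where 10.0% of all tested miRNAs were higher and 12.9% lower. The median log2 fold change of the 14 was 0.03, beside 0.0026 over all 699, and 9 values were positive. The groups did not overlap in 9 of the 14, against 27.6% of all tested miRNAs. This was also so for 27 of the 54 miRNAs with a mean of at least 100000 normalized reads. It was so for 60 of the 163 with a mean of 1000 to 10000. Both miR-124 strands lay within the range of the list, from -0.25 to 0.10.

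The most abundant member was miR-9-5p. It stood at 1284170, 1328940 and 1274120 normalized reads in controls and at 1334950, 1352800 and 1436950 in withdrawal. Every withdrawal library was above every control, with a log2 fold change of 0.09 ± 0.03 (limma, adjusted p = 0.156). miR-434-3p, a strand of the Dlk1-Dio3 region, fell by 0.24 ± 0.05 on the log2 scale (limma, adjusted p = 0.0119). miR-128-3p, known to damp the excitability of striatal neurons, stood at 719007, 729279 and 786243 in controls and at 670406, 664319 and 706615 in withdrawal. Its groups were separate, and its log2 fold change of -0.13 ± 0.04 missed the threshold (limma, adjusted p = 0.0543). miR-138-5p, known for limiting dendritic spine size, fell by 0.25 ± 0.05 (limma, adjusted p = 0.00934). miR-218-5p, abundant in motor neurons and excitatory neurons, stood at 0.05 ± 0.03 (limma, adjusted p = 0.312), close to miR-124-3p.

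Among the 4 other miRNAs of genes known as REST targets, none passed in limma and 2 (both strands of miR-9) had an unadjusted p under 0.05, where 22.9% of all 699 miRNAs did. miR-9-3p stood at 0.07 ± 0.03, miR-132-3p at -0.02 ± 0.03 and miR-212-3p at -0.05 ± 0.03, besides miR-9-5p above. Their adjusted p in limma were 0.183, 0.763 and 0.317. Those of miR-9 were positive and those of the miR-132 and miR-212 pair, which follows neuronal activity through CREB, were negative.

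**Figure D3:**
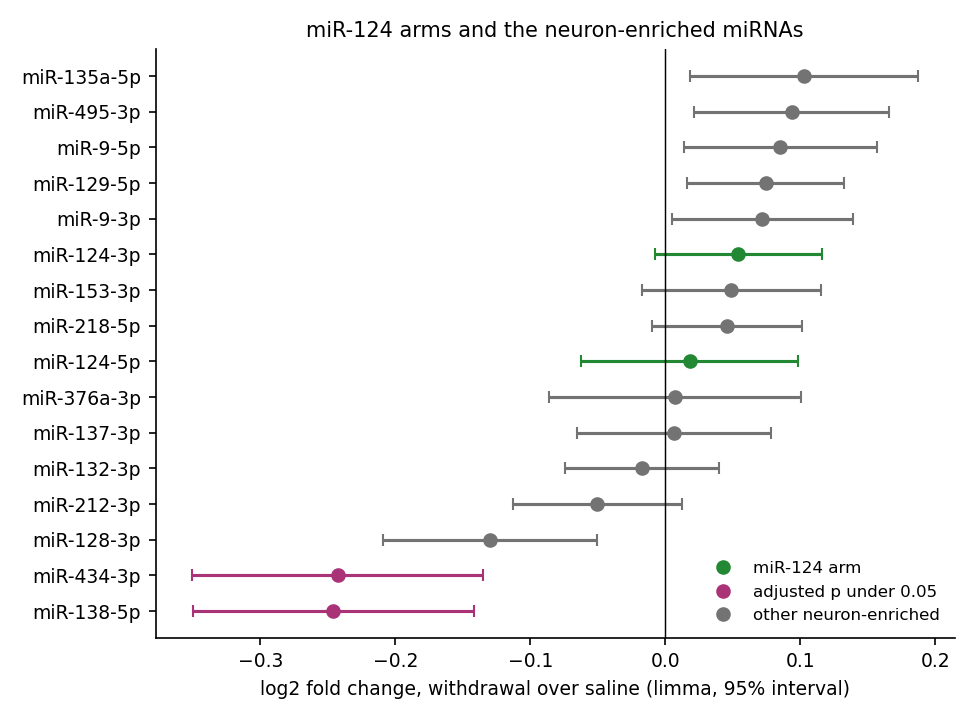
Log2 fold change (withdrawal over saline) with its 95% interval from limma for both miR-124 strands and 14 neuron-enriched miRNAs. The intervals of miR-124-3p and miR-124-5p include 0, and miR-138-5p and miR-434-3p, at -0.25 and -0.24, are the members past the threshold.

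Ratios taken within a library do not depend on how libraries are scaled. The log2 ratio of miR-124-3p to miR-9-5p was -1.86, -1.96 and -1.89 in controls and -1.86, -1.91 and -2.04 in withdrawal. These groups overlapped, and the difference of -0.03 had an exact permutation p = 0.7 (two-sided); without withdrawal 3 it was 0.02. The log2 ratio of miR-124-3p to miR-128-3p was -1.03, -1.09 and -1.19 in controls. It was -0.86, -0.88 and -1.02 in withdrawal. Each withdrawal library was above each control, and the difference of 0.18 had an exact permutation p = 0.1, the smallest possible here.

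Stated without logarithms, there were 2.15 ± 0.124 reads of miR-128-3p per read of miR-124-3p in controls and 1.90 ± 0.113 in withdrawal (SD, n = 3 each). For miR-9-5p there were 3.75 ± 0.129 and 3.83 ± 0.258 reads per read of miR-124-3p. Over the 14 neuron-enriched miRNAs the ratio of miR-124-3p to the other miRNA was higher in withdrawal for 9 and lower for 5. The groups were separate for 5 of them, which were miR-128-3p, miR-132-3p, miR-138-5p, miR-212-3p and miR-434-3p, and each of these ratios was higher in withdrawal. These 5 were also the members of the list with a negative log2 fold change, so the lower level of the other miRNA enters each ratio. The same ratio was separate for 26.1% of the other 698 miRNAs tested. Against miR-138-5p the log2 ratio went from -0.53 ± 0.0468 to -0.23 ± 0.0735 (SD, n = 3 each), and against miR-434-3p it went from -1.58 ± 0.00613 to -1.28 ± 0.0911.

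**Figure D4:**
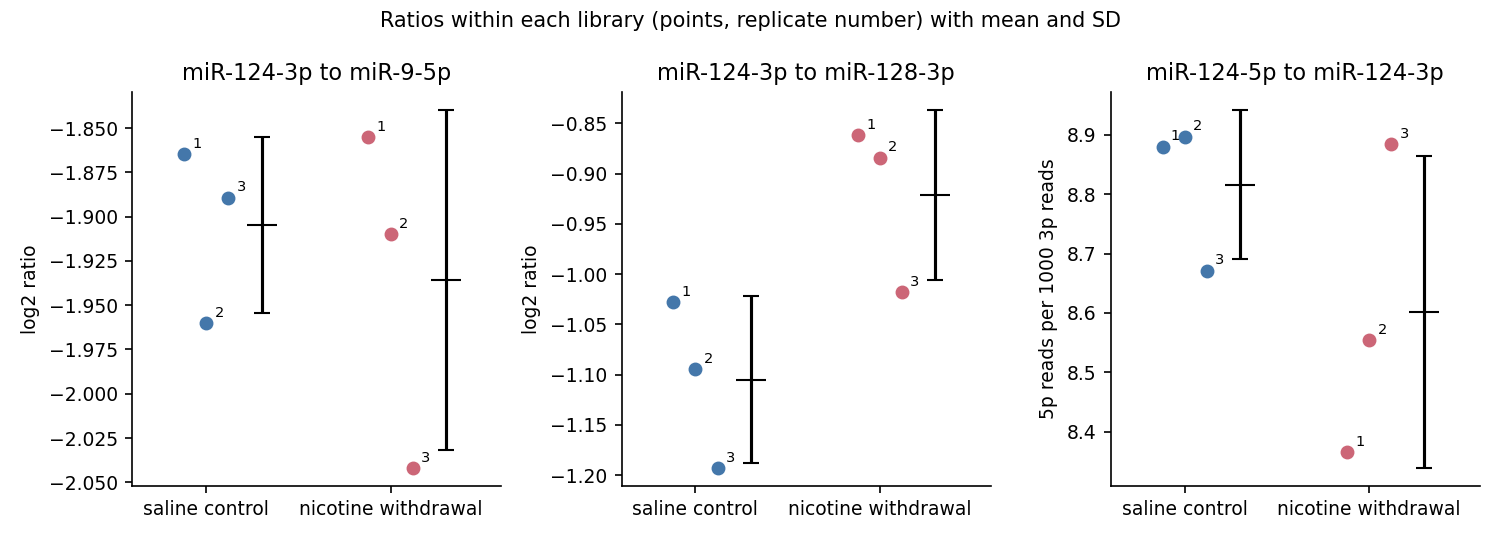
Log2 ratios of miR-124-3p to miR-9-5p and to miR-128-3p, and reads of miR-124-5p per 1000 reads of miR-124-3p, by library (points, with replicate numbers), with the mean and SD of 3 libraries; the vertical axes do not start at 0. Of the 3 ratios, the groups are separate for miR-128-3p, where the difference is 0.18 on the log2 scale.

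Lists of miRNAs named for cell types or organs were set beside the tissue label. Whether the reads of a member came from the cell type of its list was not tested. The lists do not cover brain regions, so they cannot tell dorsal striatum from other parts of the brain. The neuron-enriched list summed to between 4202403 and 4219935 normalized reads in controls and between 3963910 and 4054681 in withdrawal, and the liver miRNA miR-122-5p stood between 19.96 and 37.4 in all 6 libraries. The summed levels of astrocyte-enriched miRNAs (8 of 8 measured) were 1933009 to 1989095 in controls and 1882175 to 1913116 in withdrawal. Those of oligodendrocyte miRNAs (4 of 5 measured) were 113199 to 119834 and 107208 to 110571, those of microglia and leukocytes (6 of 6) 44103 to 45733 and 42915 to 43239, and those of choroid plexus and ependyma (8 of 8) 96213 to 99875 and 101184 to 103477. Vascular miRNAs (4 of 4) summed to 1271286 to 1298785 and 1305123 to 1339333. The erythrocyte (3 of 3), sensory organ (3 of 3) and endocrine (3 of 3) lists summed to 11457 to 12721, 3979 to 4243 and 9066 to 9770 in controls, and to 12782 to 13994, 5079 to 5994 and 10068 to 11695 in withdrawal. The muscle list (5 of 6) ran from 6519 to 6660 and from 6566 to 6767. Apart from the muscle list and miR-122-5p, these sums did not overlap between the groups, and their part in the values of miR-124 was not tested. Of single miRNAs, 27.6% of the 699 tested had groups that did not overlap. The erythrocyte sums were separate although 0 of the 3 members were. The neuron-enriched sum was lower in withdrawal, while 9 of 14 members had positive values. A sum follows its most abundant members. The vascular sum was higher through miR-143-3p (log2 fold change 0.08 ± 0.03, limma adjusted p = 0.141), while 3 of 4 members had negative values and miR-126a-3p fell by 0.10 ± 0.03 (limma, adjusted p = 0.0347). The astrocyte sum was lower, while 4 of 8 members had positive values and miR-29b-3p rose by 0.20 ± 0.04 (limma, adjusted p = 0.0157). For microglia and leukocytes, 4 of 6 had positive values, miR-146a-5p rose by 0.19 ± 0.04 and miR-150-5p fell by 0.13 ± 0.03 (limma, adjusted p = 0.0156 and 0.0246). In bulk tissue, a different number of cells of a type and a different amount of a miRNA per cell cannot be told apart.

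The most abundant member of each of these lists gives the scale, in normalized reads only, on which miR-124-3p stood. miR-27b-3p of the astrocyte list had a mean of 1245901 normalized reads and miR-143-3p of the vascular list 978910, both above the 352683 of miR-124-3p. Below it were miR-338-3p of the oligodendrocyte list at 82956 and miR-204-5p of the choroid plexus list at 90022. miR-150-5p of the microglia and leukocyte list, at 26752, was also below it. In the other lists the values were 11480 for the erythrocyte miR-451a, 4304 for miR-182-5p of the sensory organ cluster, 7314 for the endocrine miR-7a-5p and 5821 for the muscle miR-133a-3p.

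The miRNAs whose levels followed miR-124-3p most closely over the 6 libraries were sought among 319 others with a mean of at least 1000 normalized reads. Pearson's r of the log2 values is given as a description without a p, since all values of a library share its depth and scaling. The highest r were those of miR-338-5p (0.98), let-7b-3p (0.98), miR-99a-5p (0.94), miR-100-5p (0.92) and miR-99b-5p (0.90). The lowest were those of miR-376b-3p (-0.92), miR-383-5p (-0.92) and miR-423-3p (-0.94). With equal library totals these were -0.80, -0.54 and -0.92, and the 5 highest lay between 0.95 and 0.98. The middle value was -0.0486, and the quartiles were -0.515 and 0.476.

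The 5 most alike are shown because 3 of them share a seed (in capitals, bases 2 to 8), which no other matched miRNA of the table carried; sequences are from RefSeq on GRCm38.p6.
miR-99a-5p: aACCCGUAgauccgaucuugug
miR-100-5p: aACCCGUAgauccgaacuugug
miR-99b-5p: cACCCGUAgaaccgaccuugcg
miR-338-5p: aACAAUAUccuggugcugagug
let-7b-3p: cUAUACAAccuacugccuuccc
Counted from 1 at the 5′ end, miR-99a-5p and miR-100-5p differ by U16A alone, so their reads can be told apart by 1 base only. miR-99b-5p differs from miR-99a-5p by A1C, U11A, U16C and U21C.

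miR-338-5p, the strand opposite the oligodendrocyte guide miR-338-3p, stood at 8855, 8406 and 8496 normalized reads in controls and at 10057, 9287 and 8587 in withdrawal. Its order over the libraries was that of miR-124-3p: control 2 was lowest, control 3 next, and withdrawal 1 highest. The range of let-7b-3p was narrower, from 6243 to 6507. miR-100-5p stood at 121366, 118207 and 119638 in controls and at 133580, 134156 and 123659 in withdrawal. It was the member of the 5 past the threshold, with a log2 fold change of 0.12 ± 0.03 (limma, adjusted p = 0.0396), a call that ended in 6 of 17 alternatives, among them limma without a trend (adjusted p = 0.276) and the omission of any library but withdrawal 3 (limma adjusted p from 0.0557 to 0.201). miR-99a-5p and miR-99b-5p had log2 fold changes of 0.11 ± 0.04 and 0.10 ± 0.04 (limma, adjusted p = 0.140 each).

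The passenger strand had r = 0.50 with its own guide, at rank 76 of 319. This value was 0.77 with equal library totals and 0.34 with the group means removed, and the counting error of miR-124-5p is close to its spread. Of the neuron-enriched miRNAs, miR-153-3p was nearest (r = 0.85, rank 7) and miR-128-3p farthest (r = -0.82, rank 299). The difference between the groups enters these values. With the group means removed, r was 0.95 for miR-434-3p and 0.93 for miR-138-5p, against -0.23 and -0.26 with them. For miR-9-5p it was -0.85 with the means removed and 0.13 with them. Withdrawal 3 had the lowest level among the withdrawal libraries for miR-124-3p, miR-138-5p and miR-434-3p and the highest for miR-9-5p. Of the 5 highest r, 2 remained among the 5 highest with the group means removed and 2 without withdrawal 1.

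**Figure D5:**
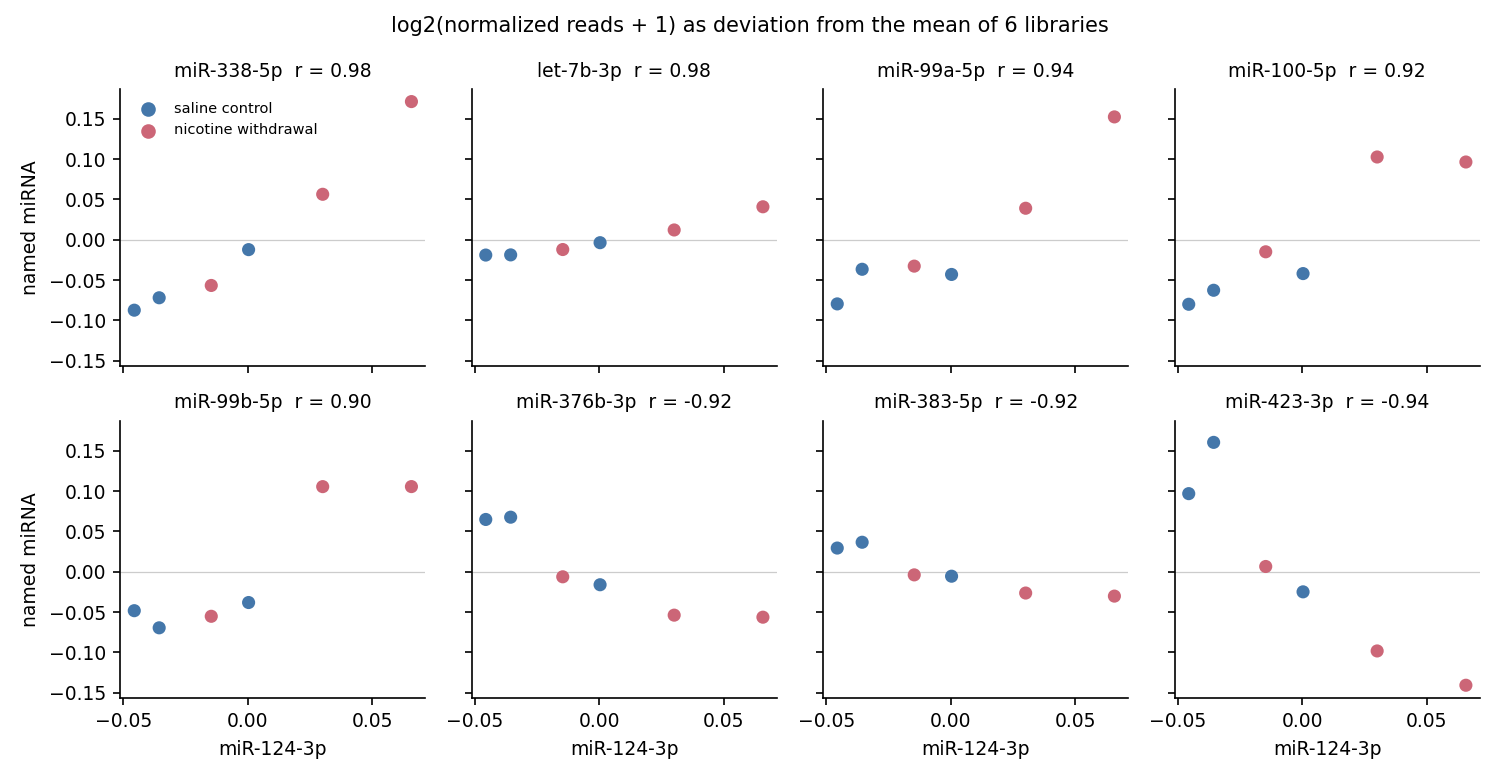
Log2(normalized reads + 1) of the 5 miRNAs with the highest and the 3 with the lowest Pearson r against that of miR-124-3p, both as deviations from the mean of 6 libraries (blue, saline control; red, nicotine withdrawal). Points run in the same direction for miR-338-5p, at r = 0.98, and run in opposite directions for miR-423-3p, at r = -0.94.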

How the data were processed

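Small RNA libraries were made with the TruSeq Small RNA kit from Trizol-extracted RNA, per the labels' protocols. The authors deposited 1 table of signal, in which read counts per mature miRNA were scaled by library. The submitters' processing notes name mm9 and DESeq2; for the aligner, annotation release and multiply mapping reads, methods were not given in the sources used here. Within a library all values were whole multiples of 1 step (tolerance 0.01), taken as 1 read to estimate depth only. The smallest positive value was 4 or 5 steps, so no count test was run.

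Values entered as log2(value + 1). The filter was a value of 10 or more in 3 or more libraries (699 of 756 miRNAs passed, both miR-124 strands among them). limma 3.58.1 in R 4.3.3 was fitted on the whole table (eBayes with trend, two-sided), and Benjamini-Hochberg adjusted p-values were read at 0.05. Ratios of strands were fitted without the trend over 203 precursors. The code was checked on simulated data. No library was a copy of another (chi-square per degree of freedom between libraries of 1 group from 21.6 to 162).

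The members and lists were chosen with earlier results of these data known. Named miRNAs are the miR-124 strands, the 3 neighbours on each side in mean level, the 5 highest and 3 lowest r, the 5 most abundant neuron-enriched miRNAs, neuron-enriched and REST-list members past the threshold, the most abundant member of each other list and the neuron-enriched precursors with both strands; miR-126a-3p, miR-29b-3p, miR-146a-5p, miR-153-3p, miR-132-3p, miR-212-3p and miR-9-3p were named after their values were seen, and a part of the rule on shared seeds was not applied. Python 3.11.15, pandas 2.3.3, numpy 2.4.6 and matplotlib 3.10.9 made the sequence tables and figures.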

Additional observations from a re-analysis of the deposited data

How the results depend on the processing

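Both miR-124 strands kept a positive log2 fold change and stayed short of the threshold in each of 17 alternatives (other pseudocounts, filters, scalings and variance models, the block, and each library left out), with limma values for miR-124-3p from 0.03 to 0.09. With a replicate block in the fit, miR-124-3p stood at 0.05 (limma adjusted p = 0.102), miR-124-5p at 0.02 (0.797) and the strand ratio at -0.04 (0.667). In that block 106 miRNAs passed in place of 46. The deviations of same-numbered libraries correlated at r = -0.073, 0.093 and 0.043, and 3 of 6 libraries correlated best with their own number. With 3 libraries in each group this cannot decide whether same-numbered libraries share a batch, which the labels do not state. The count was 22 with quantile normalization and 0 in limma without a trend (unadjusted p under 0.05 for 112); the cause was not tested for these or the block. It lay between 17 and 58 with a library left out: 17 without control 2, 21 without control 3 and 21 without withdrawal 2. The ratio to miR-9-5p ranged from -0.0713 to 0.0220 with a library left out and that to miR-128-3p from 0.14 to 0.23. The 5 most alike miRNAs kept 2 members with group means removed and 2 to 4 with a library left out. The planned edgeR and DESeq2 fits need raw reads and were left out.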
